A study of Mus musculus with 11 samples.

Results

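The 39 DNA replication genes described here encode the proteins that license, open and copy replication origins and that supply deoxynucleotides. They were chosen by symbol, each symbol matched 1 entry among 57186 in the count table, and all 39 passed the filter on low counts in every comparison. By role, 15 act in licensing, 6 in helicase activation, 6 as sliding clamp or clamp loader, 6 in polymerases, 2 in joining the lagging strand and 4 in nucleotide supply.

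RNA was sequenced in bulk from 3 sorted populations of untreated 14-day-old mice, all of the genotype Cd3giCreRosa26stopZsGreen. As the allele names read, Cre recombinase is driven from Cd3g, a gene of the T cell receptor complex, and removes a stop from a Rosa26 reporter, so that a cell turns ZsGreen-positive when Cre acted in it or in a forebear. The populations were thymic DN3 cells (n = 3), early T cell precursors that rearrange the T cell receptor beta gene, ZsGreen-positive lung group 2 innate lymphoid cells (ILC2, n = 3), and ZsGreen-negative lung ILC2 (n = 5). Whether each replicate is a separate animal is not stated. The p-values therefore rest on library-to-library spread alone, part or all of which may be technical.

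Total counts were 5951494 to 7745062 in DN3, 5762491 to 17627469 in ZsGreen-positive and 4495260 to 14424313 in ZsGreen-negative libraries. Most listed markers separated the cell types, at the threshold given below. Of 12 ILC2 markers, 11 were lower in DN3 against either lung group and 1, Thy1, was higher. Over all genes tested, 40.3% were lower against ZsGreen-positive and 41.2% against ZsGreen-negative ILC2. Of 10 DN3 markers, 10 were higher in DN3 against ZsGreen-positive ILC2 (34.8% of all genes) and 9 against ZsGreen-negative ILC2 (35.5%). Il2ra was not called in the latter. Rag1, of the V(D)J recombinase, measured 1220 to 1314 CPM (counts scaled to library size) in DN3, at most 0.29 CPM in ZsGreen-positive and at most 0.518 CPM in ZsGreen-negative ILC2, whereas the IL-33 receptor gene Il1rl1 had 0 counts in DN3, 2564 to 3347 CPM in ZsGreen-positive and 2761 to 3544 CPM in ZsGreen-negative ILC2. The labels give 17 October 2024 as the batch date of every DN3 library and 2 September 2024 or 8 April 2025 for the lung libraries, so tissue and date cannot be told apart wherever DN3 are compared. Levels below are CPM after TMM scaling over all 11 libraries, and a called gene has a Benjamini-Hochberg (BH) adjusted p under 0.05 in edgeR's quasi-likelihood test over all genes tested.

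Replication begins at origins marked by the origin recognition complex (ORC). In G1, Cdc6 and Cdt1 load the Mcm2-7 helicase there, a step called licensing that geminin (Gmnn) blocks from S phase on. Cdc45 and GINS then turn the helicase on, polymerases alpha, delta and epsilon copy the DNA around the Pcna clamp, and many of these genes are known targets of E2F transcription factors, which pocket proteins such as Rb1 hold in check. DN3 cells that pass beta selection are known to divide quickly.

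The first comparison asked how DN3 stood against each lung population. Replication genes were higher in DN3 almost throughout: 37 of 39 rose and 1 fell against ZsGreen-positive ILC2, and 37 rose and 1 fell against ZsGreen-negative ILC2. Over all 15132 genes tested, 34.8% rose and 40.3% fell against ZsGreen-positive ILC2, and 35.5% rose and 41.2% fell against ZsGreen-negative ILC2, so rises made up a larger share of the members than of all genes. The median log2 fold change of the members was 1.99 and 1.96 in the same order of comparisons, against −0.08 and −0.10 over all genes tested. At least 1 log2 unit higher were 33 of 39 members in each comparison, against 20.6% and 20.2% of all genes. In 37 of 39 members every DN3 library lay above every lung library. For all genes this was counted against 1 lung group at a time. It held for 36.8% against ZsGreen-positive and 34.7% against ZsGreen-negative ILC2. Both comparisons use the same DN3 libraries and are therefore not independent of each other.

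Summed over the 39 genes, DN3 libraries 1 to 3 held 6359, 6278 and 6234 CPM. ZsGreen-positive libraries 1 to 3 held 1622, 1726 and 1783 CPM, and ZsGreen-negative libraries 1 to 5 held 1704, 1976, 1555, 1985 and 1672 CPM. The DN3 sums lay far above every lung library, and the lung groups overlapped. As a share of all counts the genes took 0.754% to 0.758% in DN3, 0.152% to 0.17% in ZsGreen-positive and 0.142% to 0.185% in ZsGreen-negative libraries. In bulk RNA, more cells in cycle and more RNA per cycling cell cannot be told apart.

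**Figure D1:**
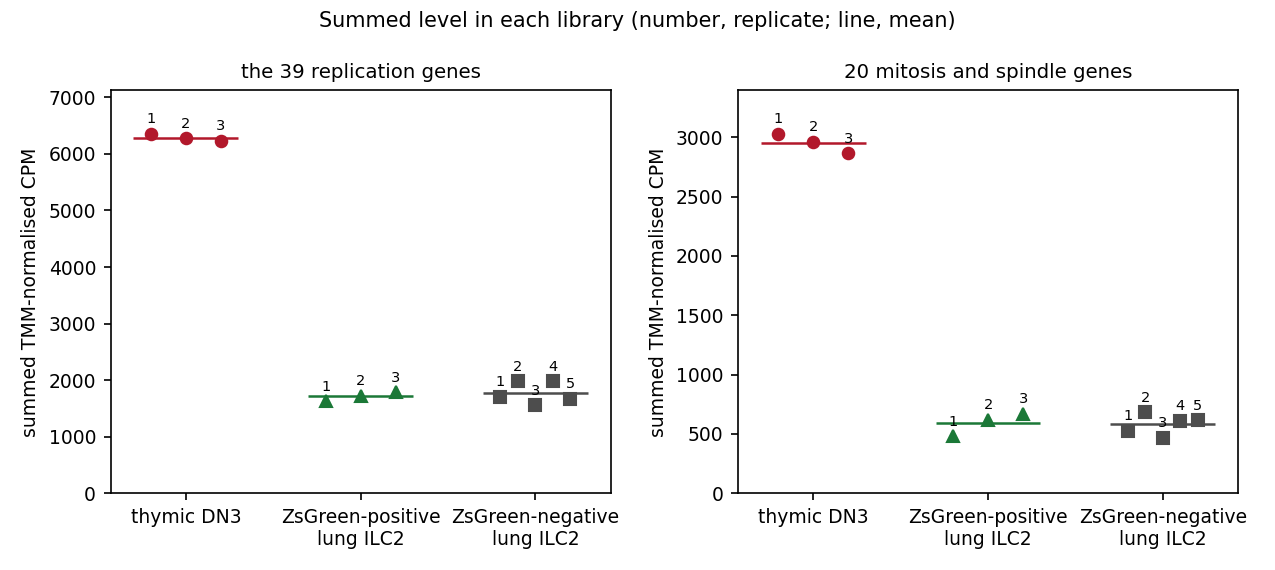
Summed TMM-normalised CPM of the 39 replication genes (left) and of 20 mitosis and spindle genes (right) in each library, with the replicate number beside each symbol and a line at the group mean. Both sums are separate between DN3 (6234 to 6359 CPM for the replication genes) and all lung libraries (1555 to 1985 CPM), and overlap between the lung groups.

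All 6 genes of the helicase ring rose in DN3. Mcm7, a subunit of the Mcm2-7 ring, measured 479, 499 and 487 CPM in DN3, against 64, 61.4 and 74.7 CPM in ZsGreen-positive and 69, 81.8, 58.7, 79.6 and 66.9 CPM in ZsGreen-negative ILC2. No DN3 library came near a lung library. The log2 fold change was 2.86 ± 0.11 (SE) against ZsGreen-positive ILC2 (edgeR BH-adjusted p = 7.06e-16) and 2.78 ± 0.10 against ZsGreen-negative ILC2 (edgeR BH-adjusted p = 4.05e-17). Mcm6 had the highest CPM of the ring in DN3, at 632, 618 and 617 CPM, against 104, 113 and 107 CPM in ZsGreen-positive and 115, 137, 86.3, 136 and 111 CPM in ZsGreen-negative ILC2. The other subunits rose by log2 fold changes, against ZsGreen-positive and ZsGreen-negative ILC2 in turn, of 2.21 and 2.19 for Mcm2, 1.99 and 1.96 for Mcm3, 2.05 and 2.00 for Mcm4, and 2.39 and 2.16 for Mcm5.

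The levels of the subunits relative to each other differed between DN3 and lung. Per kilobase of exon, Mcm7 was the highest subunit in DN3 (165 ± 3.52 CPM per kb, SD, n = 3), but measured 22.5 ± 2.38 in ZsGreen-positive (n = 3) and 24 ± 3.21 in ZsGreen-negative ILC2 (n = 5), where Mcm3 was highest at 29.9 ± 1.71 and 30.5 ± 6.19 CPM per kb. The highest subunit exceeded the lowest by 1.85 to 1.97 times in DN3, 1.51 to 1.53 times in ZsGreen-positive and 1.32 to 1.55 times in ZsGreen-negative libraries, on the per-kilobase scale. A neighbour on the other strand, Ap4m1, covers 10.8% of Mcm7's exon bases, and measured 32.7 to 35.2 CPM in DN3, 23 to 28.6 CPM in ZsGreen-positive and 21.5 to 24.7 CPM in ZsGreen-negative ILC2. Whether counting used the strand is not given in the sources used here, so some of these reads may belong to either gene.

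Among the loading factors, Cdc6 differed most. Its level was 105, 111 and 102 CPM in DN3, against 7.97, 8.13 and 9.73 CPM in ZsGreen-positive and 8.28, 13.6, 5.12, 12.6 and 9.37 CPM in ZsGreen-negative ILC2. Every DN3 library was far above every lung library. The log2 fold change was 3.59 ± 0.19 (SE; edgeR BH-adjusted p = 1.77e-12) against ZsGreen-positive ILC2, the largest of the 39 in that comparison, and 3.42 ± 0.17 (edgeR BH-adjusted p = 1.95e-13) against ZsGreen-negative ILC2. Cdt1, the partner of Cdc6 in loading, averaged 129 ± 1.75 CPM in DN3, 35 ± 6.11 CPM in ZsGreen-positive and 38.1 ± 4.08 CPM in ZsGreen-negative ILC2 (SD, n = 3, 3 and 5). Its inhibitor Gmnn averaged 45.4 ± 2.75, 11.3 ± 1.77 and 12.1 ± 2.24 CPM in the same groups. Loader and inhibitor both rose, with log2 fold changes of 1.88 for Cdt1 and 1.99 for Gmnn against ZsGreen-positive and 1.76 and 1.91 against ZsGreen-negative ILC2. The ratio of Cdt1 to Gmnn per kilobase of exon overlapped among the groups (1.48 to 1.64 in DN3, 1.64 to 1.73 in ZsGreen-positive and 1.39 to 2.21 in ZsGreen-negative libraries).

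The promoters of Cdc6, Mcm6, Mcm7 and Orc1 are printed because they hold letters of the E2F binding site and belong to members with large rises (Cdc6, Mcm6, Mcm7) and a small one (Orc1). Each is the 250 bases before a RefSeq transcript start in GRCm38.p6, written 5′ to 3′ on the strand of the gene. Capitals mark TTTCCCGC, TTTGGCGC, TTTCGCGC or TTTGCCGC on either strand.
Cdc6 promoter, chr11:98907901-98908150, + strand: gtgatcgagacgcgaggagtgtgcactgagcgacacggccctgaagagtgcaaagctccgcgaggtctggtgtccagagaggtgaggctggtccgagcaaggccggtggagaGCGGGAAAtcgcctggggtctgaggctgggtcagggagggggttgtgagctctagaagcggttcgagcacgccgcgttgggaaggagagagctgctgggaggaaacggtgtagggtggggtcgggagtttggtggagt
Mcm6 promoter, chr1:128359706-128359955, - strand: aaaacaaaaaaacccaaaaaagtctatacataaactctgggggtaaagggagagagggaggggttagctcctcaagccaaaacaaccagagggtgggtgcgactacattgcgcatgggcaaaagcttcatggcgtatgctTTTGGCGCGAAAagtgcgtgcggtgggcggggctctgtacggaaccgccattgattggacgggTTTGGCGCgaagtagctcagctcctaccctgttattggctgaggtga
Mcm7 promoter, chr5:138171884-138172133, - strand: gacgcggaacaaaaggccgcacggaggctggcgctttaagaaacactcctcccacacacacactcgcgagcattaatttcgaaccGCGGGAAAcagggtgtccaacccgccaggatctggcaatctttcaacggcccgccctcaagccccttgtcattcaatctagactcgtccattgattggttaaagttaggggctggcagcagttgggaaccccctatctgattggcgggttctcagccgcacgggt
Orc1 promoter, chr4:108579204-108579453, + strand: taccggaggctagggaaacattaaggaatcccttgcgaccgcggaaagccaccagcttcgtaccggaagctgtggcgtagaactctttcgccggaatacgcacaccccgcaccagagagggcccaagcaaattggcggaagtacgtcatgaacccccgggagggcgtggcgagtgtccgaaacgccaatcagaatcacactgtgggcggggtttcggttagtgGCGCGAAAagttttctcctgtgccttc
The word in Cdc6 begins 138 bases before the start, that in Mcm7 165 bases and that in Orc1 27 bases. Mcm6 holds words at 110, 106 and 47 bases, the first 2 of which overlap. A second Mcm7 window, before another start, holds none of the words.

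RefSeq windows were found for 31 of the 39 genes, 38 windows in all. The E2F words stood in 9 of the 38 (23.7%), against 1.86% of all 32851 windows and 2.03% of windows within the members' range of GC content. CCAAT, the word bound by NF-Y, stood on either strand in 52.6% of the members' windows and 33.8% of all windows. Besides the 4 genes above, Gins3, Mcm5, Orc3, Pola1 and Rfc3 had an E2F word. Most members with a window had none, among them Mcm10, Mcm2, Rrm2, Tyms and Pold1, which rose, as well as Orc4 and Orc5. A match of letters is a description of the sequence, and no binding was measured.

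ORC, the complex that recruits the helicase, holds the 2 members that did not rise in DN3. Orc4, a subunit of its core, measured 56, 52 and 49.8 CPM in DN3, against 93.2, 86.9 and 86.3 CPM in ZsGreen-positive and 82.5, 94.8, 91.4, 86.3 and 93.4 CPM in ZsGreen-negative ILC2. Each DN3 library was below each lung library. Orc4 fell by 0.76 log2 units against ZsGreen-positive (SE 0.09; edgeR BH-adjusted p = 1.76e-07) and by 0.77 against ZsGreen-negative ILC2 (SE 0.08; edgeR BH-adjusted p = 3.05e-08), and it is the 1 member that fell. Acvr2a, an activin receptor gene on the other strand, shares 9.48% of Orc4's exon bases and measured 3.97 to 6.77 CPM in DN3, 84.3 to 103 CPM in ZsGreen-positive and at least 87.5 CPM in every ZsGreen-negative library. Its part in the Orc4 counts was not tested.

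Orc5 was the 1 member with no call in either DN3 comparison. It measured 20.2, 20.3 and 18.8 CPM in DN3, against 14.8, 15.3 and 19.6 CPM in ZsGreen-positive and 17.3, 15.6, 14.4, 19.7 and 16.2 CPM in ZsGreen-negative ILC2, and the libraries overlapped. The log2 fold change was 0.23 (95% interval −0.09 to 0.55; edgeR BH-adjusted p = 0.177) against ZsGreen-positive and 0.24 (−0.04 to 0.53; edgeR BH-adjusted p = 0.113) against ZsGreen-negative ILC2. Without ZsGreen-positive library 3, whose Orc5 level was near that of DN3, the first value was 0.42 and called (BH-adjusted p over 19 alternative settings of edgeR, DESeq2 and limma voom 0.0275 to 0.454).

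The other ORC subunits rose by different amounts. Orc1, which with Cdc6 completes the ring around DNA, rose by 0.90 ± 0.15 (SE) log2 units against ZsGreen-positive and by 0.44 ± 0.13 against ZsGreen-negative ILC2. Orc3 rose by 0.61 and 0.60, Orc2 by 1.03 and 1.09, and Orc6, the subunit least like the others, by 1.53 and 1.46. Nif3l1, on the other strand, shares 24% of Orc2's exon bases and measured 22.6 to 24.2 CPM in DN3, 11 to 13.2 CPM in ZsGreen-positive and 9.59 to 15.6 CPM in ZsGreen-negative ILC2; its part in the Orc2 counts was not tested. Per kilobase of exon the order of subunits therefore changed: Orc3 (39.1 ± 1.49 CPM per kb) was followed by Orc6 (35.1 ± 0.853) in DN3 (SD, n = 3), but by Orc4 in ZsGreen-positive (25.7 ± 1.75 and 18.9 ± 0.811, n = 3) and ZsGreen-negative ILC2 (25.9 ± 1.96 and 19.1 ± 1.1, n = 5). Below these, Orc1 and Orc5 in DN3 (9.11 ± 0.721 and 9.4 ± 0.392 CPM per kb) and Orc2 and Orc5 in ZsGreen-negative ILC2 (7.47 ± 0.905 and 7.91 ± 0.957) differed by less than their spread. The summed ORC level was 295 to 308 CPM in DN3, against 217 to 234 CPM in ZsGreen-positive and 226 to 256 CPM in ZsGreen-negative libraries, while summed Mcm2-7 was 2554 to 2592, 490 to 524 and 414 to 626 CPM in the same groups.

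**Figure D2:**
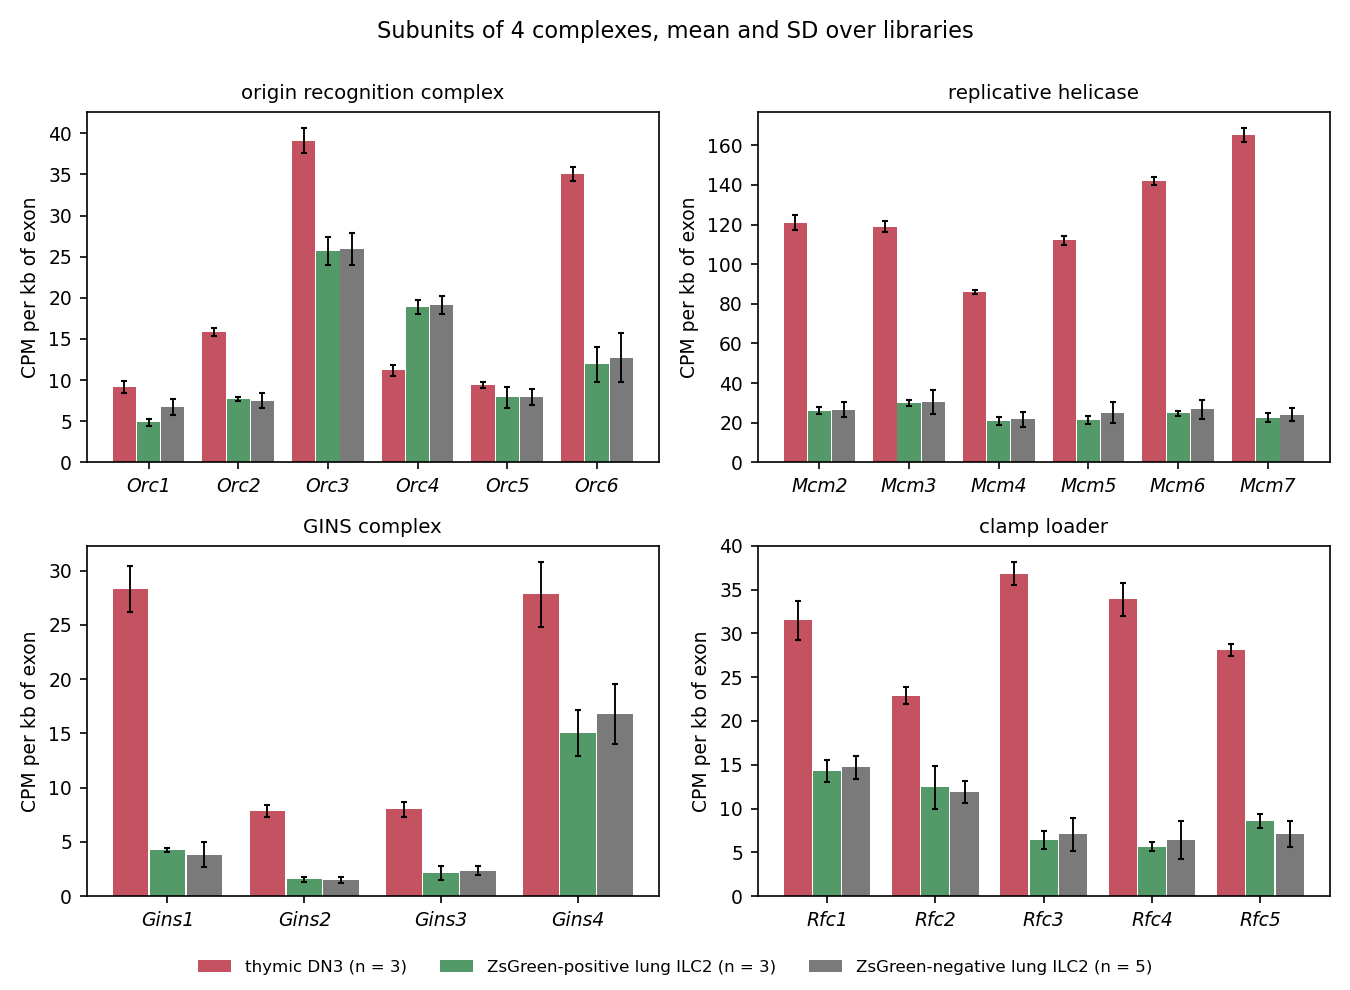
Mean level per kilobase of exon, with SD bars, of the subunits of ORC, the Mcm2-7 helicase, GINS and the Rfc clamp loader in DN3 (n = 3), ZsGreen-positive (n = 3) and ZsGreen-negative lung ILC2 (n = 5), each panel on its own axis from 0. Orc4 is the subunit with DN3 below both lung groups (11.2 against 18.9 and 19.1 CPM per kb), and Mcm7, Gins1, Rfc3 and Rfc4 show wide gaps in the other direction.

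Genes of helicase activation rose, all 6 against either lung group. Mcm10, which acts when the loaded helicase is switched on, measured 99.1, 88.6 and 90.2 CPM in DN3, against 6.09, 9.8 and 8.53 CPM in ZsGreen-positive and 6.9, 9.13, 6.82, 10.9 and 7.3 CPM in ZsGreen-negative ILC2. The DN3 libraries lay far above all lung libraries, and the lung groups overlapped. Its log2 fold change was 3.51 ± 0.16 (SE; edgeR BH-adjusted p = 1.35e-14) against ZsGreen-positive and 3.50 ± 0.15 (edgeR BH-adjusted p = 6.5e-16) against ZsGreen-negative ILC2, the largest of the 39 against ZsGreen-negative ILC2. Cdc45, the helicase cofactor, averaged 63.9 ± 2.06 CPM in DN3, 12.3 ± 2.03 CPM in ZsGreen-positive and 18.3 ± 4.26 CPM in ZsGreen-negative ILC2 (SD, n = 3, 3 and 5), a log2 fold change of 2.36 and 1.81.

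The 4 GINS genes, whose proteins form a tetramer with the subunits in equal number, rose by different amounts. Gins1 rose by 2.76 ± 0.21 (SE) and 2.93 ± 0.20 log2 units against ZsGreen-positive and ZsGreen-negative ILC2, and Gins4 by 0.87 ± 0.15 and 0.72 ± 0.13. In DN3 their levels per kilobase of exon differed by less than their spread (28.3 ± 2.09 and 27.8 ± 2.96 CPM per kb, SD, n = 3). In lung ILC2 Gins4 was well above Gins1, at 15 ± 2.11 against 4.21 ± 0.19 CPM per kb in ZsGreen-positive (n = 3) and 16.8 ± 2.74 against 3.83 ± 1.15 in ZsGreen-negative cells (n = 5). Gins3 averaged 21.7 ± 1.88 CPM in DN3, 5.84 ± 1.69 CPM in ZsGreen-positive and 6.3 ± 1.15 CPM in ZsGreen-negative ILC2 (SD, n = 3, 3 and 5), a log2 fold change of 1.84 and 1.78. Gins2 shares 70.7% of its exon bases with Gse1 on the other strand, so its rise of 2.36 and 2.39 log2 units may include reads of that gene, which measured 149 to 157 CPM in DN3, 76.4 to 87.2 CPM in ZsGreen-positive and 50.3 to 103 CPM in ZsGreen-negative ILC2.

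All 6 genes of the clamp and its loader rose. Pcna, the ring that tethers polymerases to DNA, measured 331, 303 and 323 CPM in DN3, against 98, 101 and 113 CPM in ZsGreen-positive and 110, 139, 99.7, 143 and 101 CPM in ZsGreen-negative ILC2. Every DN3 library lay above every lung library, at log2 fold changes of 1.61 ± 0.12 (SE) and 1.43 ± 0.11. Of the loader, Rfc3 rose by 2.53 and 2.40 log2 units and Rfc4 by 2.61 and 2.41, Rfc1, the large subunit, by 1.14 and 1.09, and Rfc2 by 0.86 and 0.94. Rfc5 rose by 1.69 against ZsGreen-positive and 1.98 against ZsGreen-negative ILC2. Neighbours on the other strand share 19.1% of the exon bases of Rfc2 (Lat2), 15.4% of Rfc5 (Wsb2) and 13.4% of Rfc4 (Eif4a2). Lat2 measured 3.1 to 5.38 CPM in DN3, 18.1 to 32.8 CPM in ZsGreen-positive and 13.9 to 19.2 CPM in ZsGreen-negative ILC2. In the same groups Wsb2 measured 14.8 to 16.6, 42.9 to 47.1 and 36.8 to 46.4 CPM, and Eif4a2 379 to 400, 459 to 501 and 450 to 517 CPM. Their part in the Rfc counts was not tested.

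All 6 polymerase genes rose in both comparisons, within a narrower range. Pold1, the catalytic subunit of polymerase delta, measured 268, 292 and 291 CPM in DN3, against 56.8, 66.4 and 84.5 CPM in ZsGreen-positive and 62.4, 75.3, 60.4, 74.3 and 78.2 CPM in ZsGreen-negative ILC2. Pole, its counterpart of the leading strand, averaged 143 ± 7.78 CPM in DN3, 34.4 ± 6.25 CPM in ZsGreen-positive and 32.8 ± 6.29 CPM in ZsGreen-negative ILC2 (SD, n = 3, 3 and 5). The log2 fold changes of Pold1 and Pole were 2.02 and 2.07 against ZsGreen-positive and 2.01 and 2.12 against ZsGreen-negative ILC2. In polymerase alpha-primase, which lays down the RNA-DNA primer, Pola1 rose by 2.17 and 2.12, Pola2 by 1.56 and 1.61, Prim1 by 1.87 and 1.67, and Prim2 by 2.52 and 2.04.

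On the lagging strand, Lig1, the ligase that seals Okazaki fragments, averaged 265 ± 9.04 CPM in DN3, 83.5 ± 6.45 CPM in ZsGreen-positive and 86.5 ± 13.2 CPM in ZsGreen-negative ILC2 (SD, n = 3, 3 and 5), a log2 fold change of 1.66 and 1.61. Fen1, the flap nuclease, was counted at 6.06, 9.78 and 7.95 CPM in DN3, against 1.01, 0.739 and 1.49 CPM in ZsGreen-positive and 1.73, 1.43, 2.44, 2.48 and 1.84 CPM in ZsGreen-negative ILC2. The log2 fold change was 2.74 ± 0.35 (SE) against ZsGreen-positive and 2.02 ± 0.29 against ZsGreen-negative ILC2. These were the lowest levels, in CPM, of the 39 genes in every group, at 4 to 25 counts per lung library. Gm10143, an antisense entry, covers 78.8% of Fen1's exon bases. It measured 1.72 to 1.99 CPM in DN3, 0.145 to 0.739 CPM in ZsGreen-positive and at most 0.497 CPM in ZsGreen-negative ILC2, and was thus higher in DN3, like Fen1. Its part in the Fen1 counts was not tested. Tmem258, also on the other strand, covers 5.37% and measured 40.1 to 41.5 CPM in DN3, 36.8 to 45.5 CPM in ZsGreen-positive and 34.2 to 47.4 CPM in ZsGreen-negative ILC2. Whether ambiguous reads were discarded is not given in the sources used here, so the Fen1 level is uncertain.

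All 4 nucleotide supply genes rose, by different amounts. Rrm1 and Rrm2 are the large and small subunits of ribonucleotide reductase, which makes deoxynucleotides. Rrm2 measured 291, 279 and 283 CPM in DN3, against 49, 59.3 and 67.6 CPM in ZsGreen-positive and 51.8, 63.3, 41.9, 61.3 and 52.3 CPM in ZsGreen-negative ILC2. Rrm1 measured 455, 440 and 441 CPM in DN3, against 148, 156 and 147 CPM in ZsGreen-positive and 147, 156, 151, 151 and 147 CPM in ZsGreen-negative ILC2. Rrm1 was the steadiest member in lung ILC2, with a coefficient of variation of 3.26% in ZsGreen-positive and 2.26% in ZsGreen-negative libraries. Per kilobase, Rrm2 exceeded Rrm1 in DN3 (a ratio of 1.15 to 1.17) and was below it in every lung library (0.603 to 0.839 in ZsGreen-positive and 0.507 to 0.742 in ZsGreen-negative ILC2). Tyms, which makes thymidylate, rose by 2.19 ± 0.15 and 2.37 ± 0.14 (SE) log2 units against ZsGreen-positive and ZsGreen-negative ILC2, and the salvage kinase Tk1 by 1.05 ± 0.12 and 1.08 ± 0.11.

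**Figure D3:**
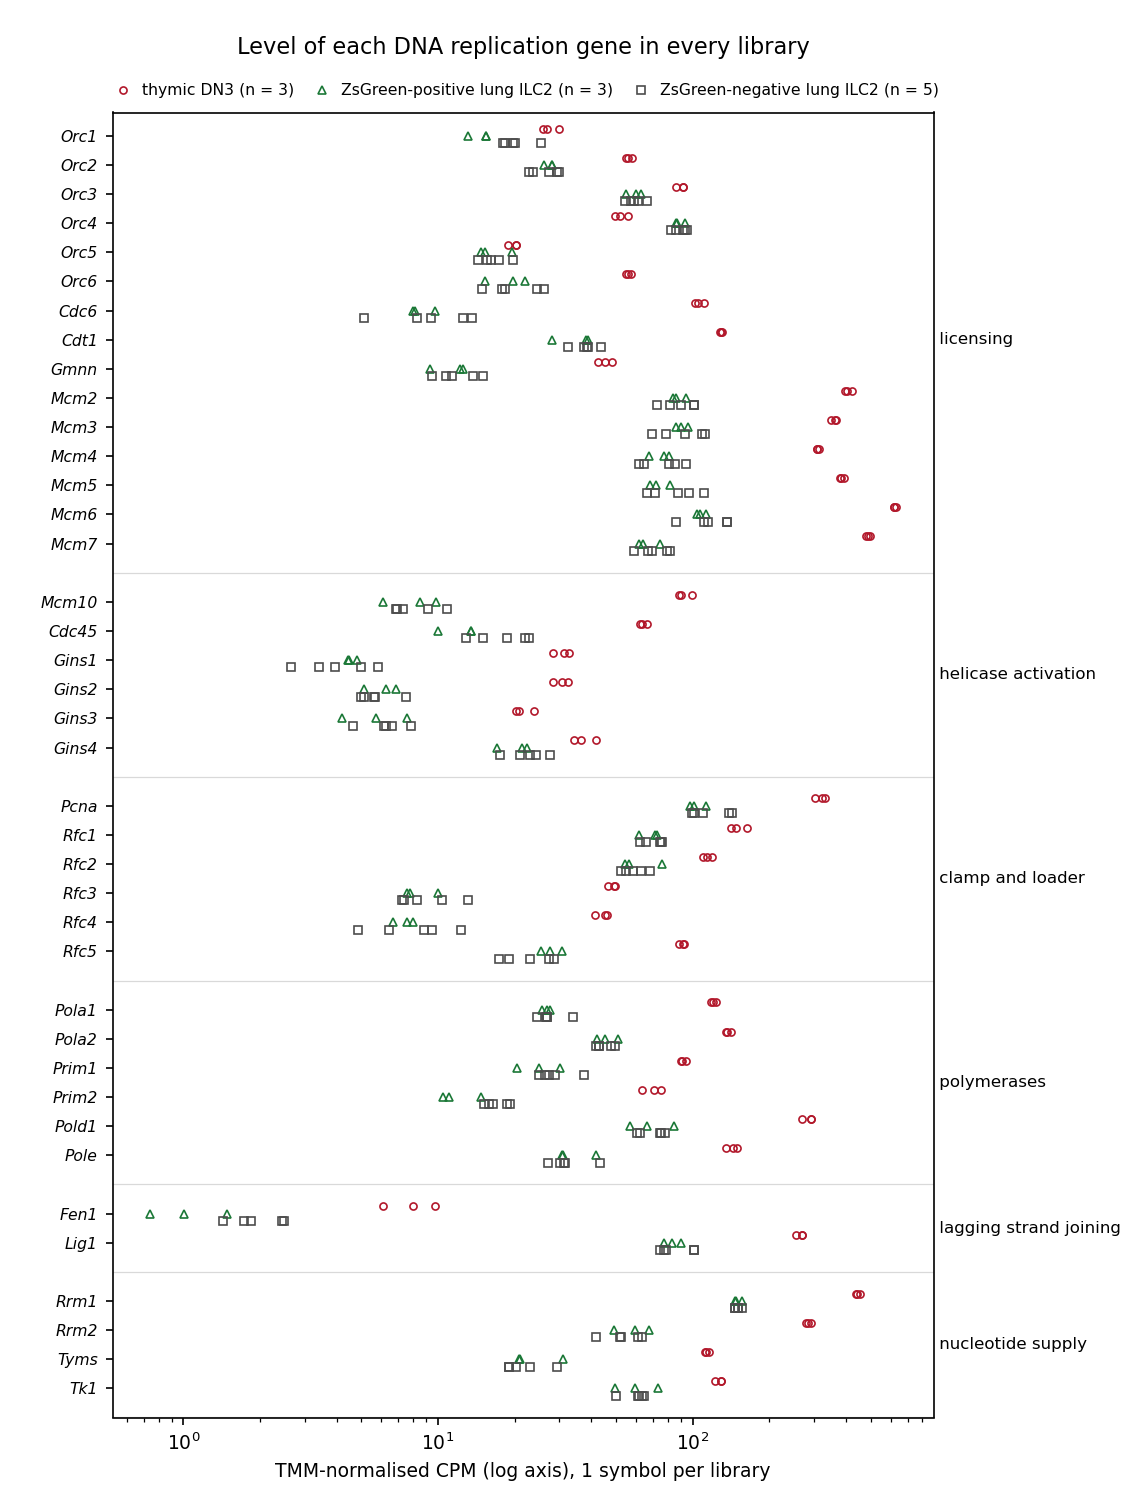
TMM-normalised CPM of each replication gene in every library on a log axis, grouped by role, with DN3 as circles, ZsGreen-positive ILC2 as triangles and ZsGreen-negative ILC2 as squares. DN3 lie to the right of all lung libraries for 37 genes, to the left for Orc4 and among them for Orc5.

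**Figure D4:**
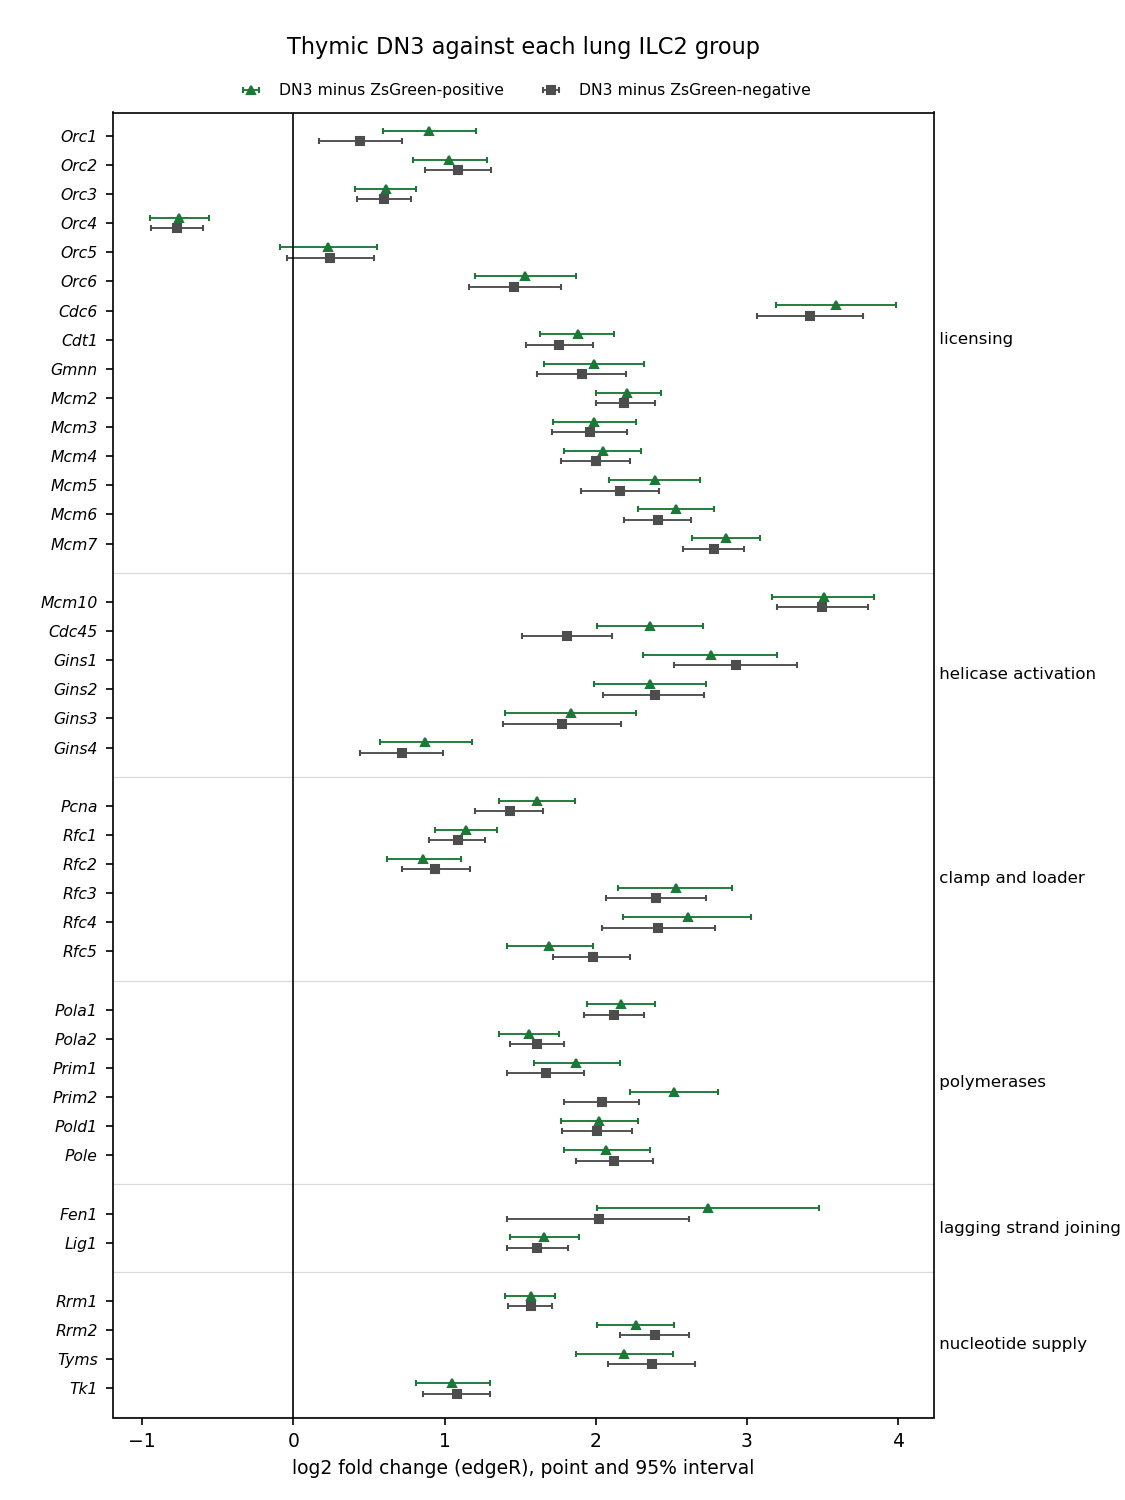
Log2 fold change of DN3 against ZsGreen-positive (triangles) and ZsGreen-negative lung ILC2 (squares) for each gene, with 95% intervals from edgeR. The values run from −0.76 (Orc4) to 3.59 (Cdc6) and from −0.77 (Orc4) to 3.50 (Mcm10), and the intervals of Orc5 include 0 in both comparisons.

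Other genes of replication, 54 in a list that excludes the members, mostly moved the same way. Against ZsGreen-positive ILC2 46 rose and 6 fell, and against ZsGreen-negative ILC2 47 rose and 6 fell, with medians of 1.92 and 1.81 log2 units. Shmt1, a folate enzyme that feeds thymidylate synthesis, averaged 120 ± 3.53 CPM in DN3, 9.32 ± 0.98 CPM in ZsGreen-positive and 8.63 ± 1.8 CPM in ZsGreen-negative ILC2 (SD, n = 3, 3 and 5). Uhrf1, which carries DNA methylation through replication, averaged 895 ± 34.5, 61.4 ± 0.643 and 60.5 ± 12.9 CPM in the same groups, and the deoxycytidine kinase gene Dck 189 ± 5.2, 24.4 ± 1.66 and 27 ± 5.41 CPM.

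The 6 genes that fell were the same in both comparisons and are named here after their values were seen. Samhd1, which degrades deoxynucleotides, had 25 counts in all in the DN3 libraries (0.584 to 1.61 CPM), against 570 to 810 CPM in ZsGreen-positive and 662 to 1025 CPM in ZsGreen-negative ILC2. Tk2, the mitochondrial thymidine kinase, fell by 2.14 and 2.04 log2 units, and Rrm2b, the p53-induced small subunit of ribonucleotide reductase, by 1.14 in both comparisons. Rrm2b thus moved against its S-phase counterpart Rrm2. The accessory polymerase subunits Pold4 and Pole4 and the replisome gene Donson also fell, by 0.76 to 1.78 log2 units.

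Of the 13 E2F and pocket protein genes, 8 rose and 2 fell in each DN3 comparison. The genes that fell were the pocket proteins Rb1 (42.9 ± 1.99 CPM in DN3, 359 ± 26.3 CPM in ZsGreen-positive and 344 ± 36.9 CPM in ZsGreen-negative ILC2, SD, n = 3, 3 and 5) and Rbl2 (38.3 ± 2.1, 278 ± 13.6 and 254 ± 18.1 CPM). The third pocket protein gene, Rbl1, rose by 1.14 and 1.03 log2 units. Tfdp1, the dimer partner of E2F, averaged 373 ± 11.1 CPM in DN3, 85.2 ± 10.9 CPM in ZsGreen-positive and 98 ± 8.29 CPM in ZsGreen-negative ILC2. Among the E2F genes themselves, E2f1, E2f2, E2f3, E2f4, E2f6 and E2f8 rose, by 1.08 (E2f4) to 2.50 (E2f8) log2 units against ZsGreen-positive and by 1.09 (E2f4) to 2.73 (E2f2) against ZsGreen-negative ILC2. E2f5, E2f7 and Tfdp2 were not called, with log2 fold changes of −0.30 to 0.18 over both comparisons.

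Mitosis and spindle genes, which act after replication, rose in 20 of 20 cases in both comparisons, with medians of 2.39 and 2.47 log2 units. Kif20a, with the smallest p in both comparisons, averaged 74.9 ± 2.66 CPM in DN3, 10.5 ± 0.649 CPM in ZsGreen-positive and 10.2 ± 0.763 CPM in ZsGreen-negative ILC2 (SD, n = 3, 3 and 5). The mitotic cyclin gene Ccnb1 averaged 140 ± 8.65, 14.3 ± 1.83 and 15 ± 4.14 CPM in the same groups. Its log2 fold changes of 3.29 and 3.21 were the largest of the 20. Markers of lung structural cells differed between the same libraries, with a summed level of 134 to 158 CPM over 17 genes in DN3, 1047 to 2632 CPM in ZsGreen-positive and 416 to 1178 CPM in ZsGreen-negative ILC2. Of the 16 tested in each DN3 comparison, 14 fell and 2 rose. The genes that rose were Epcam (35.9 ± 3.49 CPM in DN3, 14.6 ± 2.58 CPM in ZsGreen-positive and 13.8 ± 0.679 CPM in ZsGreen-negative ILC2, SD, n = 3, 3 and 5) and Pecam1 (100 ± 8.46, 62.5 ± 9.6 and 57.2 ± 6.94 CPM), which make up most of the DN3 sum. Acta2, Cldn18, Sftpa1 and Scgb1a1 had 0 counts in DN3. The part of these markers in the DN3 differences was not tested.

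The second comparison asked whether the lung populations differ from each other. No replication gene passed the test between ZsGreen-positive and ZsGreen-negative ILC2. edgeR called 0 of 39 higher and 0 lower, where of the 13771 genes tested 2.35% were called higher and 2.18% lower, 4.52% in all. DESeq2 and limma voom also called 0 members. At an unadjusted p under 0.05 there were 3 (Orc1, Cdc45 and Prim2), a smaller share than the 16.8% of all genes. The median log2 fold change of the members was −0.05, with 12 values above and 27 below 0, and that of all genes tested was 0 to 2 decimals.

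The intervals say how large a difference could have gone unseen. For 38 of 39 members the 95% interval lay within 1 log2 unit on either side of 0, and for 30 within 0.58, which is 1.5-fold. Rrm1 had a log2 fold change of 0.01 (−0.15 to 0.17) and Mcm2 of 0 to 2 decimals (−0.21 to 0.21). Licensing genes summed to 772 to 800 CPM in ZsGreen-positive and 694 to 942 CPM in ZsGreen-negative libraries, polymerase genes to 192 to 230 and 204 to 254 CPM, and nucleotide supply genes to 267 to 318 and 269 to 302 CPM. The exception in precision was Fen1, at −0.81 (−1.71 to 0.09), with few counts.

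The 3 members with the smallest p had negative log2 fold changes. Orc1 measured 15.4, 13.1 and 15.4 CPM in ZsGreen-positive ILC2, against 20, 25.4, 19.7, 18.4 and 18 CPM in ZsGreen-negative ILC2. Prim2, the large primase subunit, measured 14.8, 10.5 and 11.1 CPM in ZsGreen-positive ILC2, against 15.9, 18.6, 19.2, 16.4 and 15.2 CPM in ZsGreen-negative ILC2. In both genes the groups did not overlap, which held for 2 of 39 members and for 10.2% of all genes tested. The log2 fold change was −0.44 ± 0.15 (SE; edgeR BH-adjusted p = 0.12) for Orc1, −0.45 ± 0.16 (edgeR BH-adjusted p = 0.128) for Prim2 and −0.53 ± 0.19 (edgeR BH-adjusted p = 0.147) for Cdc45, so none was called.

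**Figure D5:**
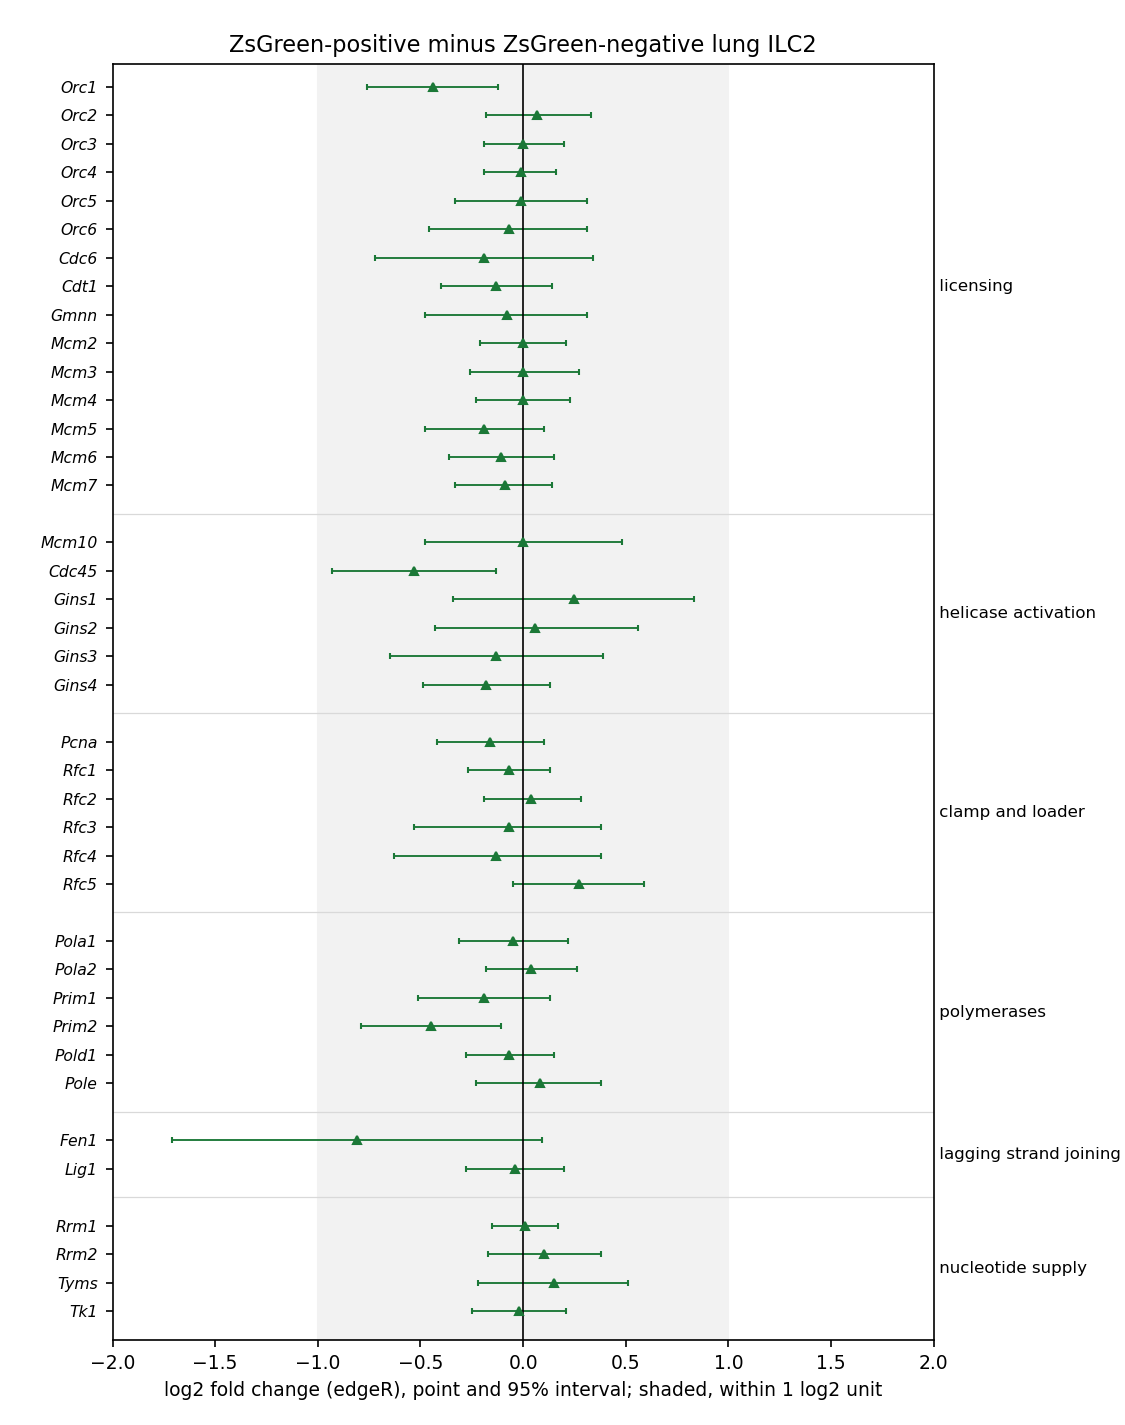
Log2 fold change of ZsGreen-positive against ZsGreen-negative lung ILC2 for each replication gene with its 95% interval from edgeR, the range within 1 log2 unit shaded. Points lie between −0.81 (Fen1) and 0.27 (Rfc5), and the interval of Fen1 is the one that leaves the shaded range.

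Related lists gave no call either. Of 53 other replication genes tested, 13 E2F and pocket protein genes and 20 mitosis and spindle genes, edgeR called 0, with 1, 1 and 0 at an unadjusted p under 0.05 in the same order. Mcm8, a helicase relative used in repair, had the smallest p of the first list, at 2.8 ± 0.0593 CPM in ZsGreen-positive and 4.74 ± 0.936 CPM in ZsGreen-negative ILC2 (SD, n = 3 and 5; edgeR BH-adjusted p = 0.189), and E2f3 of the second, at 20.3 ± 1.51 and 25.6 ± 3.29 CPM (edgeR BH-adjusted p = 0.216). Of the lung structural markers, all 16 tested had positive log2 fold changes in ZsGreen-positive against ZsGreen-negative libraries, with a median of 1.25 and 2 called (Cldn18 and Cldn5). With the mean level of those markers as a further term, edgeR called 0 members, but also 0.0944% of all genes higher and 0.247% lower. Within the libraries of 2 September 2024 alone (2 against 4) it likewise called 0 members, with 1.05% of all genes higher and 1.11% lower.

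The spread between libraries was smallest in DN3 for most members. The median coefficient of variation of a member was 3.6% in DN3, 11.3% in ZsGreen-positive and 17.1% in ZsGreen-negative libraries. This value was not computed over all genes. Replicate pairs were also compared over all genes with at least 10 counts in the pair. Chi-square divided by its degrees of freedom was 1.72 to 3.54 in DN3, 4.69 to 11.8 in ZsGreen-positive and 3.16 to 13.4 in ZsGreen-negative pairs. The smaller spread in DN3 was thus not shown to be particular to the members. The members summed to 45103 to 58396 counts per DN3 library, against 9339 to 29885 in ZsGreen-positive and 6380 to 22665 in ZsGreen-negative libraries. All DN3 libraries share a date, whereas each lung group mixes dates. The part of counts and dates in the spread was not tested. Among the 5 ZsGreen-negative libraries, replicate 4 held the highest value for 18 of 39 members and replicate 2 for 16, and replicate 3 the lowest for 22. The mean log2(CPM + 1) of the structural markers was highest in replicate 3 of these 5, at 4.93, and lowest in replicate 4. Among ZsGreen-positive libraries replicate 3 was highest for 21 members and replicate 1 lowest for 18. Their structural marker means were 5.61, the highest of the 3, and 4.79, the lowest. Replicate 3 was also the only ZsGreen-positive library of 8 April 2025 and the deepest, at 17627469 counts. ZsGreen-negative replicate 5, of the same date, was highest for 2 members and lowest for 5. The part of these markers, of date and of depth in the ranks was not tested. How often each library was highest or lowest over all genes was not counted, so the ranks may not be particular to the members. DN3 libraries ranged from 1.13% (Mcm4) to 23.5% (Fen1) in the coefficient of variation of a gene.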

How the data were processed

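The 39 genes and the other gene lists were chosen with earlier results of these data known. Per the labels' protocols, RNA came from a PicoPure isolation kit and libraries from an mRNA kit of Watchmaker Genomics. The deposited tables hold raw read counts per gene that the authors made on GRCm39, a build named in the submitters' processing notes together with DESeq2; for aligner, annotation and use of strand, nothing is stated in those sources. Of 2 count tables, the 8 lung columns are identical in both.

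Counts were tested with edgeR 4.0.16 in R 4.3.3 (quasi-likelihood F test, robust, TMM scaling, filterByExpr with a minimum count of 10, BH adjustment over all genes tested, threshold 0.05). The lung groups were fitted on the 8 lung libraries with date as a term, and DN3 on all 11 libraries by group. Calls of each fit were tried on simulated counts, in which few genes were changed, as many up as down, with no date effect. Most genes were called in the DN3 comparisons, so the simulation does not show how scaling or calls behave there. DESeq2 1.42.0, limma voom 3.58.1, other scalings, no filter, other library sets and leaving out each library were tried. Each of 16 replicate pairs differed by more than counting noise, with chi-square divided by its degrees of freedom at 1.72 to 13.4. Exon lengths and overlaps come from GENCODE M21 (GRCm38), matched by gene identifier, and promoters from RefSeq (GRCm38.p6). A gene's length is the union of exon bases over its annotated transcripts, not the length of the transcript expressed. The order of different genes per kilobase within a group therefore depends on the annotation. All 39 members are described. Of the other lists the text gives counts, up to 4 genes of smallest p, and every E2F and pocket protein gene. The 6 replication genes that fell and the markers named were chosen after their values were seen.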

Additional observations from a re-analysis of the deposited data

Results flagged for a closer look

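In 5 of 39 replication genes, 1 of the 5 ZsGreen-negative libraries stood apart from the other 4 by Dixon's criterion at the 95% level. For normal values, chance alone meets it in about 5% of groups. The share of all genes that meet it was not counted, and the members share the same libraries. No excess is therefore claimed for the members. Orc1 was highest in replicate 2, at 25.4 CPM with the next library at 20 CPM. Gins2, which overlaps Gse1, was also highest in replicate 2, at 7.52 CPM with the next at 5.68 CPM. Replicate 4 was highest for the catalytic polymerase genes Pola1 (33.9 CPM, next 26.9 CPM) and Pole (43.5 CPM, next 31.7 CPM). Tk1 was lowest in replicate 1, at 50.2 CPM with the next library at 60.9 CPM. The cause was not tested. Groups of 3 libraries were not examined in this way.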

How the results depend on the processing

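In DN3, 37 or 38 members were higher and 1 was lower under nearly all alternatives, the exception being 36 higher with the replicate block against ZsGreen-negative ILC2, where Orc1 had a log2 fold change of 0.33 (edgeR BH-adjusted p = 0.0679). With upper-quartile scaling, which shifted the median gene by 0.105 log2 units against ZsGreen-negative ILC2, Orc5 had 0.35 and was called. Orc5 was also called against ZsGreen-positive ILC2, at 0.42, without ZsGreen-positive replicate 3 and with the 2024 lung libraries alone. Leaving out 1 library gave 37 members higher against ZsGreen-negative and 37 to 38 against ZsGreen-positive ILC2.

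Between the lung groups 0 members were higher under every alternative run. Members lower were 1 with no filter on low counts (Cdc45, −0.54, edgeR BH-adjusted p = 0.0497) and 1 with all 11 libraries and no date term (Prim2, −0.48, edgeR BH-adjusted p = 0.0442), and 0 otherwise; an uncalled log2 fold change turned its sign 108 times over 18 settings. Over all genes, 323 higher and 300 lower became 621 and 460 with no filter, 130 and 103 with the replicate block in place of date, 145 and 153 with the 2024 libraries alone, and 13 and 34 with the structural marker term. Leaving out 1 library gave 146 to 471 higher and 140 to 343 lower, the counts being 146 and 140 without ZsGreen-negative replicate 5, 149 and 172 without ZsGreen-positive replicate 2, and 148 and 154 without ZsGreen-positive replicate 3. The cause was not tested. Replicate numbers are shared by the groups but did not pair the libraries (correlations of deviations −0.142 to 0.078). Depth limits Fen1, with 4 to 25 counts in a lung library.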
